A study of Mus musculus with 10 samples.

Results

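CXC chemokines are small secreted proteins that guide leukocytes along a gradient, and each acts through a receptor of the CXCR family. Cxcl1, Cxcl2, Cxcl3 and Cxcl5 bind CXCR2, which is carried mainly by neutrophils and their precursors. Cxcl9 and Cxcl10 are induced by interferon gamma and bind CXCR3, which is carried by activated T cells and NK cells. Cxcl12, made largely by stromal cells, holds leukocytes through CXCR4, and Cxcl16 is a membrane-bound chemokine of macrophages and dendritic cells that binds CXCR6. These 8 ligand genes and the receptor genes Cxcr2 and Cxcr3 are the 10 genes described here, taken by their symbols and not by their values. They are 10 of the 17864 genes in the count table, and all 10 passed the filter on low counts that left 14816 genes for testing.

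The counts come from RNA-seq of whole 4T1 tumors, 5 of the group sgCon and 5 of the group sgTaz. 4T1 is a mouse mammary carcinoma line, and in both groups the cells carried Cas9, the nuclease that cuts where a guide RNA directs it. sgCon cells also carried a control guide RNA and sgTaz cells a guide RNA against Wwtr1, the gene of the Hippo pathway transducer TAZ. The tumors came from cells injected into the mammary fat pad of female mice that were 6 to 8 weeks old, and no treatment of the mice is given in the labels. The methods name both immunodeficient SCID mice and immunocompetent BALB/c mice and do not state which carried the sequenced tumors, nor whether the edited cells were a clone or a pool. RNA of T cell genes was present in every tumor, with levels given below. The labels separate the tumors by number but do not state that each came from a mouse of its own, so p-values measure the spread between these tumors. RNA was taken from the whole tumor, so that fewer cells of a type and less RNA per cell cannot be told apart.

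Wwtr1 is the check of the labels. Its level in CPM (counts scaled to TMM-normalized library totals) was 192.2, 181.3, 114.5, 171.4 and 156.1 in sgCon tumors 1 to 5 and 86.56, 103.7, 109.9, 139.0 and 101.6 in sgTaz tumors 1 to 5. 4 of the 5 sgTaz tumors lay below all sgCon tumors, while sgTaz tumor 4 lay above sgCon tumor 3. The fitted difference was −0.59 on the log2 scale (SE 0.15, adjusted p = 0.096 with edgeR's quasi-likelihood test and Benjamini-Hochberg adjustment, used for every adjusted p unless another tool is named). Small deletions at a Cas9 cut leave most of the RNA of a gene to be counted, so this level does not measure the protein. The labels give the cell type as tumor cell, and markers of epithelial cells were present in every library, where the summed level of 6 epithelial markers was 1993 to 4513 CPM for sgCon and 1528 to 3366 CPM for sgTaz. Library totals ranged from 14753922 to 19595821 counts for sgCon and from 12185383 to 18395558 counts for sgTaz. The library of sgTaz tumor 5 stood apart from its group in lymph node genes. The summed level of 7 lymph node stroma markers was 390.0 CPM there, between 1.42 and 6.72 CPM in the other 4 sgTaz tumors and between 40.96 and 842.5 CPM in sgCon tumors. These markers include Cr2 and Fcer2a, which are also B cell genes, so the list does not measure stroma alone.

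No gene of the 10 had an adjusted p below 0.05, where the lowest was 0.117 (Cxcl9) and the highest 0.932 (Cxcl5). Over all 14816 genes, 0.00675% were called at this threshold, which is the single gene Tmx4, named here after its value was seen. An unadjusted p below 0.05 was reached by 6 of the 10 genes, 4 of them lower and 2 higher in sgTaz tumors, and by 21.8% of all genes tested (9.86% higher and 11.9% lower). With DESeq2 1 of the 10 passed the adjusted threshold (Cxcl9, against a background of 6.75% of genes), and with limma-voom and sample quality weights 4 passed (Cxcr2, Cxcl1, Cxcl9 and Cxcr3, against 10.4%). The groups overlapped in all 10 genes, while they did not overlap in 4.57% of the genes tested. The median log2 difference was −0.71 over the 10 genes and −0.02 over all genes tested.

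**Figure D1:**
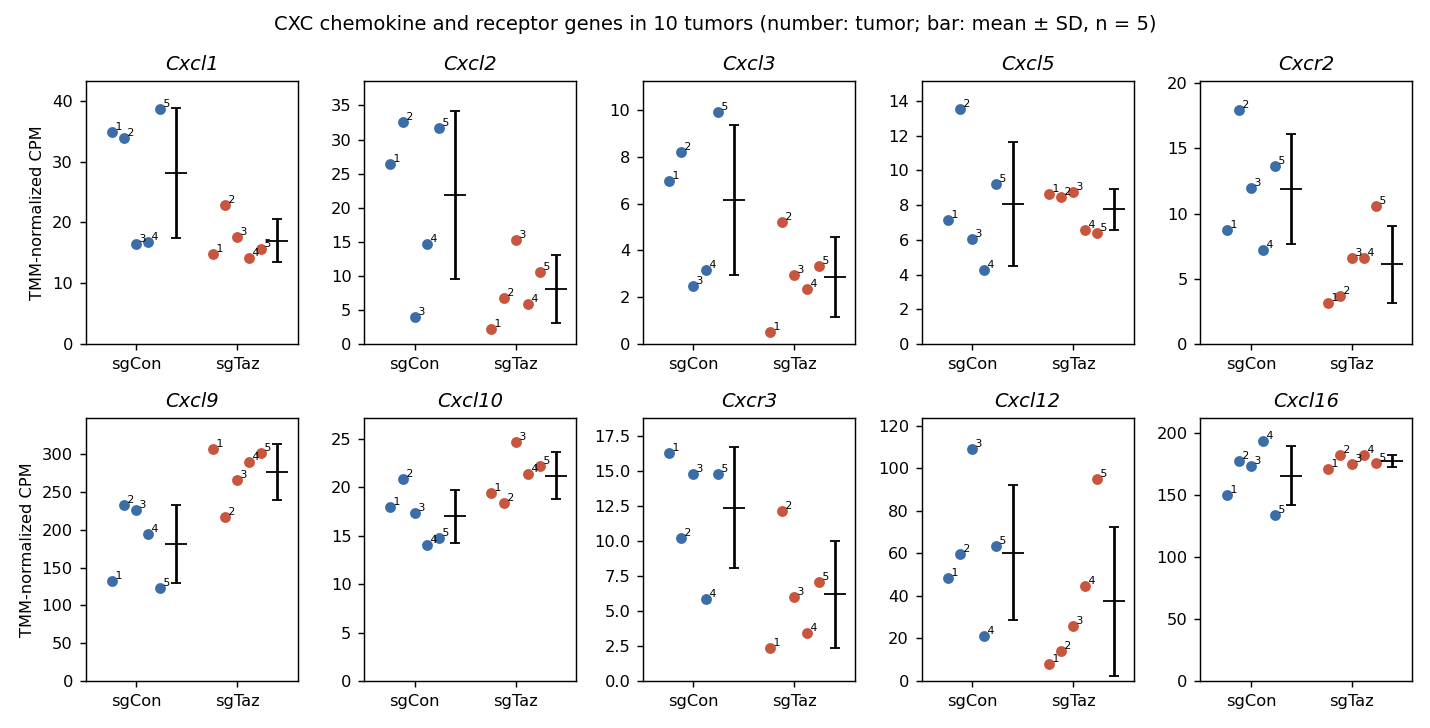
Level of the 10 genes in TMM-normalized CPM (vertical axes, from 0) in 5 sgCon tumors (blue) and 5 sgTaz tumors (red), with the number of each tumor beside its point and bars for the mean ± SD. The groups overlap in every panel, 4 sgTaz tumors lie below all sgCon tumors for Cxcr2, and 4 sgTaz tumors lie above all sgCon tumors for Cxcl9.

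6 of the 10 genes lie on chromosome 5 of mm10 within 1.59 megabases. Cxcl5 (chr5:90759360-90761624), Cxcl3 (chr5:90786103-90789600), Cxcl1 (chr5:90891241-90893115) and Cxcl2 (chr5:90903871-90905938) follow each other on the plus strand. Cxcl9 (chr5:92321347-92328079) and Cxcl10 (chr5:92346638-92348889) lie next, on the minus strand, 1415408 bases beyond Cxcl2. The other genes are Cxcr2 (chr1:74153989-74161246, plus strand), Cxcr3 (chrX:101731535-101734269, minus strand), Cxcl12 (chr6:117168535-117181367, plus strand) and Cxcl16 (chr11:70453983-70459984, minus strand).

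Promoters are shown for the CXCR2 ligands Cxcl1, Cxcl2 and Cxcl3 and for the CXCR3 ligands Cxcl9 and Cxcl10. Both groups are textbook targets of inducible factors, NF-kB for the first and interferon-activated factors with NF-kB for the second. Promoter sequences were taken from RefSeq (build GRCm38.p6), in which 8 of the 10 genes were matched. Cxcl5 and Cxcl16 were not matched, so their promoters were not searched, and whether Cxcl5 holds the motifs below is not known here. Each run spans 120 to 31 bases before the RefSeq start, 5′ to 3′ on the strand of the gene, and capitals mark a match to the NF-kB consensus.
Cxcl1, chr5:90891125-90891214, plus strand: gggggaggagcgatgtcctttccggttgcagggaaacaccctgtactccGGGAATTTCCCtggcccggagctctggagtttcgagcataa
Cxcl2, chr5:90903779-90903868, plus strand: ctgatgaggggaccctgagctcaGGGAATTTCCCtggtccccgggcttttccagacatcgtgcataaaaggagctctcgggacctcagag
Cxcl3, chr5:90785981-90786070, plus strand: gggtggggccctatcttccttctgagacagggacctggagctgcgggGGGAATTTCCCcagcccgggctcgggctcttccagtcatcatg
Cxcl9, chr5:92328110-92328199, minus strand: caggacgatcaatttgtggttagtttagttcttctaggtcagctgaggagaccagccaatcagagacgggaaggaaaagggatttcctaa
Cxcl10, chr5:92348920-92349009, minus strand: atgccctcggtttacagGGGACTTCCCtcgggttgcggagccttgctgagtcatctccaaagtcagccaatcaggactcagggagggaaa

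Cxcl1, Cxcl2 and Cxcl3 held the same run of 11 bases, GGGAATTTCCC. Its first base lay 71 bases before the start of Cxcl1, 97 before that of Cxcl2 and 73 before that of Cxcl3. The run contains 2 overlapping matches to the NF-kB consensus, and 14 of 32851 mouse promoters in the table (0.0426%) held it within 250 bases before the start. In the same window Cxcl10 held GGGACTTCCC from 103 to 94 bases and GGGAAATTCC from 159 to 150 bases before its start, both matches to the NF-kB consensus. Cxcl10 also held GAAAGTGAAA, from 213 to 204 bases before its start, which on the other strand matches the core of an interferon-stimulated response element (TTTC, any 2 bases and TTTC again). No match to these motifs was found in the window of Cxcl9, Cxcl12, Cxcr2 or Cxcr3, with both strands searched and no overlap counted other than that in the run of 11 bases. The gamma-activated site of interferon gamma signalling (TTCNNNGAA, N for any base) was searched too and found in none of the 8 matched promoters. Forms that depart from the exact patterns were not searched, so a looser site can be present where no match is given. Over all promoters of the table, 3.9% held the NF-kB consensus, 2.98% the interferon core and 7.02% the gamma-activated site.

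Per length, in reads per kilobase of exon scaled to library size (RPKM), Cxcl9 had the highest level of the 10 genes in sgCon tumors (60.2 ± 17.1 RPKM, SD, n = 5), followed by Cxcl16 (54.9 ± 7.80 RPKM, n = 5), and these neighbours did not differ beyond their spread. Cxcl1 (15.0 ± 5.68 RPKM), Cxcl2 (10.6 ± 5.93 RPKM), Cxcl10 (7.54 ± 1.22 RPKM), Cxcl12 (7.38 ± 3.902 RPKM) and Cxcr3 (7.16 ± 2.50 RPKM) came next, with neighbours closer to each other than the larger SD of the pair. Cxcl5 (4.32 ± 1.92 RPKM), Cxcr2 (3.91 ± 1.38 RPKM) and Cxcl3 (1.76 ± 0.92 RPKM) were lowest. In sgTaz tumors Cxcl9 stood at 91.5 ± 12.2 RPKM (n = 5), above Cxcl16 at 58.8 ± 1.64 RPKM (n = 5) by more than the spread of both. Exon length was taken from the merged exons of all annotated transcripts. In Cxcl1, Cxcl2, Cxcl3 and Cxcl10 these form 1 block over the whole gene, which can include bases that are introns in some transcripts. The RPKM of these genes can therefore be too low beside the others, and the order between genes depends on this length. The following levels are in CPM, which compares tumors within a gene.

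Among the CXCR2 ligands, 3 of 4 were lower on average in sgTaz tumors, without passing the adjusted threshold, and Cxcl5 differed by close to 0. Cxcl1, a ligand made by epithelial and stromal cells under inflammatory cytokines, was at 34.89, 33.79, 16.47, 16.71 and 38.62 CPM in sgCon tumors 1 to 5. In sgTaz tumors 1 to 5 it was at 14.89, 22.86, 17.63, 14.16 and 15.57 CPM. sgCon tumors 1, 2 and 5 were above all sgTaz tumors, and sgCon tumors 3 and 4 lay within the sgTaz range. The means were 28.1 ± 10.7 and 17.0 ± 3.51 CPM (SD, n = 5 each), a log2 difference of −0.72 (SE 0.26, 95% interval −1.28 to −0.16, adjusted p = 0.153 with edgeR). An exact two-sided permutation test of log2 CPM gave p = 0.0714, where the smallest p that 5 against 5 tumors can give is 0.00794. With limma-voom the adjusted p was 0.0296.

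Cxcl2, made mainly by activated myeloid cells, had the largest fitted difference of the 10 genes. Its levels were 26.48, 32.53, 3.99, 14.71 and 31.64 CPM in sgCon tumors 1 to 5. They were 2.23, 6.78, 15.27, 5.83 and 10.62 CPM in sgTaz tumors 1 to 5. The same 3 sgCon tumors as for Cxcl1 lay above all sgTaz tumors, and sgCon tumor 3 was lower than every sgTaz tumor but tumor 1. sgTaz differed from sgCon by −1.42 on the log2 scale (SE 0.56, 95% interval −2.64 to −0.20, 2.67-fold lower, adjusted p = 0.178 with edgeR), with a p of 0.111 in the exact permutation test.

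Cxcl3, a paralog of Cxcl2, had the lowest mean CPM of the ligands in both groups. It stood at 6.97, 8.21, 2.50, 3.16 and 9.93 CPM in sgCon tumors 1 to 5 and at 0.51, 5.23, 2.95, 2.35 and 3.35 CPM in sgTaz tumors 1 to 5. sgCon tumors 1, 2 and 5 were again above all sgTaz tumors. The fitted log2 difference was −1.09 (SE 0.52, 95% interval −2.23 to 0.05, adjusted p = 0.246 with edgeR, p = 0.0873 in the exact permutation test). Counts of Cxcl3 were as low as 8. Of the 2159 runs of 50 bases in Cxcl2 transcripts, 126 (5.84%) also occur in transcripts of Cxcl3. Reads of such runs cannot be told apart between the pair. The sources used here do not state whether they were counted or dropped.

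Cxcl5, a ligand of epithelial cells, was at 7.15, 13.56, 6.05, 4.27 and 9.24 CPM in sgCon tumors 1 to 5. It was at 8.66, 8.46, 8.79, 6.56 and 6.40 CPM in sgTaz tumors 1 to 5. The sgTaz tumors lay inside the sgCon range, whose ends were sgCon tumors 4 and 2. The log2 difference was −0.05 (SE 0.27, 95% interval −0.65 to 0.55, adjusted p = 0.932 with edgeR), an interval that leaves room for a change of either sign. The difference of mean log2 CPM had the other sign, 0.04 (p = 0.929 in the exact permutation test).

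The 4 CXCR2 ligands together had a summed level of 14.67 to 43.7 RPKM in sgCon tumors (median 37.25) and of 13.81 to 22.34 RPKM in sgTaz tumors (median 17.83). Cxcl1 made up the largest share in both groups, a median of 47.14% of the sum in sgCon and 51.87% in sgTaz tumors. The share of Cxcl2 had a median of 35.01% in sgCon and 19.35% in sgTaz tumors, and that of Cxcl5 a median of 11.93% and 21.12%. The shares overlapped between groups for all 4 ligands. They rest on merged exon lengths, which span the whole gene for Cxcl1, Cxcl2 and Cxcl3 but not for Cxcl5. The size of a share relative to another ligand therefore depends on these lengths. Without sgTaz tumor 5 the log2 differences of Cxcl1, Cxcl2 and Cxcl3 were −0.69, −1.53 and −1.15, and with the lymph node stroma markers as a covariate they were −0.84, −1.17 and −0.99, with no adjusted p below 0.05 in either fit with edgeR.

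Cxcr2, the receptor of these ligands on neutrophils, was lower on average in sgTaz tumors by 1.95-fold without passing the adjusted threshold. Its levels were 8.77, 17.92, 11.98, 7.22 and 13.63 CPM in sgCon tumors 1 to 5 and 3.12, 3.68, 6.59, 6.64 and 10.55 CPM in sgTaz tumors 1 to 5. sgTaz tumors 1 to 4 lay below all sgCon tumors, and sgTaz tumor 5 lay within the sgCon range. The means were 11.9 ± 4.21 and 6.12 ± 2.96 CPM (SD, n = 5 each), a log2 difference of −0.96 (SE 0.34, 95% interval −1.72 to −0.21, adjusted p = 0.153 with edgeR), and the exact permutation test gave p = 0.0397. An exact p below 0.05 was reached by 3 of the 10 genes (Cxcr2, Cxcl9 and Cxcl10) and by 19.2% of all genes tested.

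Neutrophil markers were lower on average with Cxcr2. Of the 11 listed markers 10 were tested, and all 10 had a lower fitted level in sgTaz tumors, while none passed the adjusted threshold (4 with an unadjusted p below 0.05). Their median log2 difference was −1.05, against −0.02 over all genes. S100a8 and S100a9, the subunits of calprotectin, had log2 differences of −1.44 (SE 0.45) and −1.37 (SE 0.45), and Cd177, a neutrophil surface protein, one of −1.38 (SE 0.59), with adjusted p of 0.124, 0.134 and 0.204 with edgeR. The summed level of the 11 markers was 392.5 to 1250 CPM in sgCon tumors (median 965.0) and 221.8 to 691.1 CPM in sgTaz tumors (median 566.8), and the ranges overlapped. Ly6g, the defining surface marker, did not pass the filter and was between 0.42 and 2.20 CPM in sgCon and between 0.13 and 1.46 CPM in sgTaz tumors.

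Within groups, whether Cxcr2 or Cxcl2 passed the test of a relation with these markers depended on how the markers were summarised. After the group means were taken off, Cxcr2 correlated with the mean log2 CPM of the neutrophil markers over the 10 tumors with r = 0.863 (permutation p = 0.00382, adjusted over 10 relations 0.0191) and rho = 0.842 (permutation p = 0.00643, adjusted 0.0321). Leaving out sgCon tumor 2 and sgTaz tumor 5, whose marker levels lay farthest from the median, gave r = 0.709 with a permutation p of 0.11 over the other 8 tumors. In the summed CPM of the markers Mmp9 weighed most, with a mean of 450.2 CPM in sgCon and 359.5 CPM in sgTaz tumors. With the log2 of the summed CPM of the markers in place of their mean log2 CPM, Cxcr2 had r = 0.552 (permutation p = 0.114, adjusted 0.228). Cxcl2 had r = 0.626 with the same markers (permutation p = 0.0707, adjusted 0.141, rho = 0.673 with permutation p = 0.0542, and r = 0.602 without the same 2 tumors), and with the summed CPM r = 0.887 (permutation p = 0.00372, adjusted 0.0186). Cxcl1 had r = 0.666 with 6 epithelial markers (permutation p = 0.0375, adjusted 0.0937, rho = 0.758 with permutation p = 0.0273), which became 0.517 without sgCon tumor 1 and sgTaz tumor 2. Cxcl5 had r = 0.048 with the same markers (permutation p = 0.919, rho = 0.127). Each correlation joins 2 values of one library, and what part the number of neutrophils had in the level of Cxcr2 was not tested.

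The estimate for Cxcr2 changed with lymph node genes as a covariate, but this covariate is largely confounded with the group. The mean log2 CPM of the lymph node stroma markers was 2.61 to 6.95 in sgCon tumors. It was −2.32 to −0.80 in sgTaz tumors 1 to 4, and only sgTaz tumor 5 (5.42) lay within the sgCon range. The fit can therefore hardly separate the covariate from the group. With this mean as a covariate, the log2 difference of Cxcr2 was −0.18 (SE 0.38, unadjusted p = 0.644 with edgeR), and without sgTaz tumor 5 it was −1.25 (adjusted p = 0.0788 with edgeR). None of the 10 genes passed the adjusted threshold in either fit, where the background was 0.0% with the covariate and 1.15% without sgTaz tumor 5. An unadjusted p below 0.05 was reached with the covariate by 2 of the 10 (Cxcl9 and Cxcl10, against 10.3% of all genes) and without sgTaz tumor 5 by 6 of the 10 (Cxcr2, Cxcl1, Cxcl2, Cxcl9, Cxcl12 and Cxcr3, against 20.2%).

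**Figure D2:**
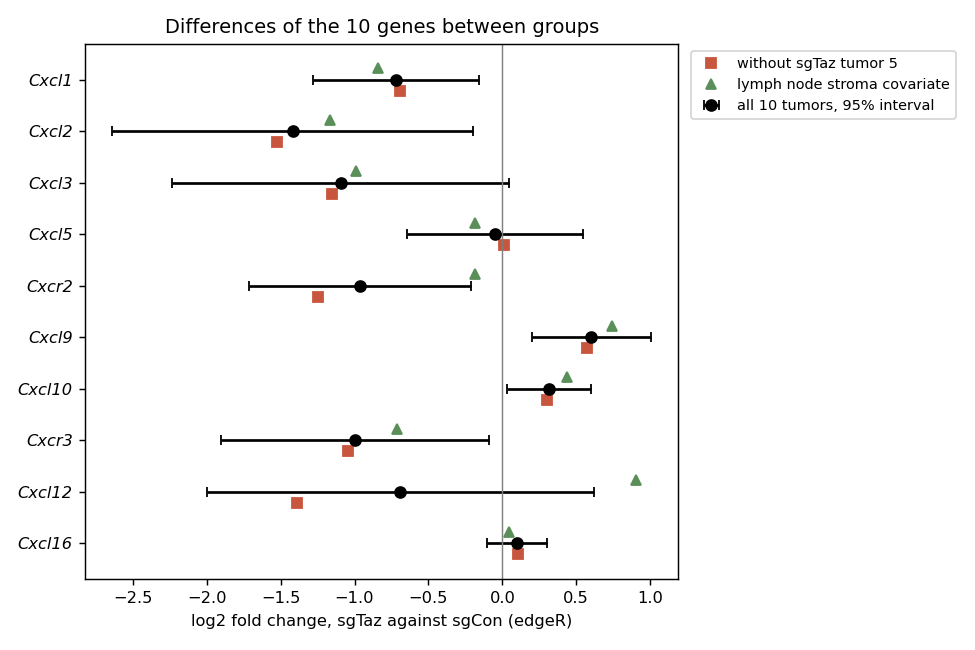
log2 fold change of sgTaz against sgCon tumors from edgeR (horizontal axis) for the 10 genes (vertical axis), over all 10 tumors with 95% intervals (black), without sgTaz tumor 5 (red squares) and with the lymph node stroma markers as a covariate (green triangles). The estimate of Cxcl12 lies at −0.69 over all tumors, at −1.39 without sgTaz tumor 5 and at 0.91 with the covariate, while those of Cxcl9 lie between 0.57 and 0.74.

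The CXCR3 ligands were higher on average in sgTaz tumors. Cxcl9, a chemokine of macrophages and dendritic cells exposed to interferon gamma, was at 131.9, 232.5, 226.0, 194.3 and 123.2 CPM in sgCon tumors 1 to 5. It was at 306.5, 216.3, 266.3, 288.9 and 302.0 CPM in sgTaz tumors 1 to 5. All sgTaz tumors but tumor 2 lay above all sgCon tumors. The means were 181.6 ± 51.5 and 276.0 ± 36.8 CPM (SD, n = 5 each), 1.52-fold higher, with a log2 difference of 0.60 (SE 0.18, 95% interval 0.20 to 1.006, adjusted p = 0.117 with edgeR) and a p of 0.0238 in the exact permutation test. The adjusted p was 0.032 with DESeq2 (log2 difference 0.62) and 0.0351 with limma-voom (0.67). The difference was 0.57 without sgTaz tumor 5 and 0.74 (SE 0.26) with the lymph node stroma covariate, where the unadjusted p was 0.0165 and the adjusted p 0.456 with edgeR.

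Cxcl10, which shares the receptor of Cxcl9, showed a smaller difference. It stood at 17.96, 20.87, 17.34, 13.99 and 14.79 CPM in sgCon tumors 1 to 5 and at 19.41, 18.40, 24.64, 21.36 and 22.19 CPM in sgTaz tumors 1 to 5. sgTaz tumors 3, 4 and 5 lay above all sgCon tumors, and sgCon tumor 2 was the only sgCon tumor within the sgTaz range. The fitted log2 difference was 0.32 (SE 0.13, 95% interval 0.04 to 0.60, 1.25-fold higher, adjusted p = 0.191 with edgeR, p = 0.0397 in the exact permutation test). In the annotation 133 exon bases of Cxcl10 overlap those of Art3 on the other strand, and the strand setting of the counting is not given in the sources used here.

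Cxcl9 had a median of 89.27% of the summed RPKM of Cxcl9 and Cxcl10 in sgCon tumors and of 90.99% in sgTaz tumors. The exon length used for Cxcl10 spans its whole gene, so its share can be too low. Their sum was 47.42 to 86.37 RPKM in sgCon tumors (median 70.63) and 79.9 to 110.2 RPKM in sgTaz tumors (median 105.3). Cxcl11, the further CXCR3 ligand, had a log2 difference of 0.24 (SE 0.18, adjusted p = 0.461 with edgeR).

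Cxcr3, the receptor of these ligands on T and NK cells, was lower on average in sgTaz tumors, where its ligands were higher. It was at 16.33, 10.21, 14.78, 5.83 and 14.79 CPM in sgCon tumors 1 to 5. It was at 2.35, 12.14, 6.0, 3.40 and 7.06 CPM in sgTaz tumors 1 to 5. sgCon tumors 1, 3 and 5 lay above all sgTaz tumors, and sgTaz tumors 1 and 4 lay below all sgCon tumors. The means were 12.4 ± 4.33 and 6.19 ± 3.83 CPM (SD, n = 5 each), a log2 difference of −0.996 (SE 0.41, 95% interval −1.90 to −0.09, adjusted p = 0.196 with edgeR), with a p of 0.0556 in the exact permutation test and an adjusted p of 0.0455 with limma-voom. Cxcr3 differed by −1.04 on the log2 scale without sgTaz tumor 5 and by −0.71 (SE 0.66) with the lymph node stroma covariate.

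Of 14 tested markers of T and NK cells, 6 had a higher and 8 a lower fitted level in sgTaz tumors, with unadjusted p below 0.05 for 1 and 4 of them and no adjusted p below 0.05. The T cell receptor subunit genes Cd3d and Cd3e had log2 differences of −1.94 and −1.41, while Gzmb, a granule protease of cytotoxic cells, had one of 0.94 (SE 0.32, adjusted p = 0.141 with edgeR). Cd3e was at 12.27 to 92.51 CPM in sgCon and 9.235 to 29.03 CPM in sgTaz tumors, so its RNA was read in every tumor. The paper describes SCID mice as lacking functional adaptive immunity, and the host strain was not tested from these levels. All 7 B cell markers were lower by their fitted level, with a median log2 difference of −3.14 and no adjusted p below 0.05 (7 unadjusted), and their summed level was 64.67 to 806.5 CPM in sgCon and 7.56 to 171.7 CPM in sgTaz tumors. Within groups, Cxcr3 had r = 0.293 with the T and NK cell markers (permutation p = 0.368, rho = 0.115) and r = 0.332 with the lymph node stroma markers (permutation p = 0.48, rho = 0.285), and Cxcl9 had r = 0.405 with the T and NK cell markers (permutation p = 0.42, rho = 0.358). Leaving out sgCon tumor 3 and sgTaz tumor 5, farthest out in both marker lists, gave r of 0.155, 0.28 and −0.008. What part lymph node tissue in the tumor samples had in the level of Cxcr3 was not tested.

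Cxcl12 had the widest spread of the 10 genes in sgTaz tumors, with a coefficient of variation of 93.4% there and of 52.9% in sgCon tumors. It was at 48.34, 59.56, 109.2, 21.26 and 63.27 CPM in sgCon tumors 1 to 5 and at 7.96, 14.14, 25.61, 44.83 and 94.81 CPM in sgTaz tumors 1 to 5. The ranges overlapped almost wholly, with sgTaz tumors 1 and 2 below and sgCon tumor 3 above all tumors of the other group. The log2 difference was −0.69 (SE 0.60, 95% interval −1.999 to 0.62, adjusted p = 0.521 with edgeR, p = 0.19 in the exact permutation test).

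Over all 10 tumors Cxcl12 correlated with lymph node genes within groups, and the sign of its difference changed with them as a covariate. Within groups Cxcl12 correlated with the lymph node stroma markers with r = 0.845 (permutation p = 0.00134, adjusted over 10 relations 0.0134) and rho = 0.818 (permutation p = 0.00308, adjusted 0.0308). Without sgCon tumor 3 and sgTaz tumor 5, the farthest in these markers, r was 0.731 with a permutation p of 0.0427. With 1 tumor left out, the adjusted permutation p was 0.0515 without sgCon tumor 4, 0.064 without sgTaz tumor 2 and 0.0868 without sgTaz tumor 5. It stayed below 0.05 without any other tumor. In sgTaz tumors 1 to 4 these markers were near 0, where the prior count weighs on their log2 values (r = 0.839 with a prior count of 0.5). With the lymph node stroma markers as a covariate, which the fit can hardly separate from the group, the log2 difference of Cxcl12 was 0.91 (SE 0.51, unadjusted p = 0.103 with edgeR). Without sgTaz tumor 5 it was −1.39 (unadjusted p = 0.0226, adjusted p = 0.176 with edgeR). All 5 tested lymph node stroma markers, the B cell genes Cr2 and Fcer2a among them, had a lower fitted level in sgTaz tumors. Their median log2 difference was −2.52, with no unadjusted p below 0.05. Glycam1, a mucin of high endothelial venules, was at 0 counts in sgTaz tumors 1, 2 and 3 and at up to 236.6 CPM in the group, and Madcam1, Chst4, Ccl19, Cr2 and Fcer2a were at 0 in at least 1 tumor. With 7 fibroblast markers, r of Cxcl12 was 0.474 (permutation p = 0.224, adjusted 0.373, rho = 0.624) and 0.861 without sgCon tumor 3 and sgTaz tumor 1.

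**Figure D3:**
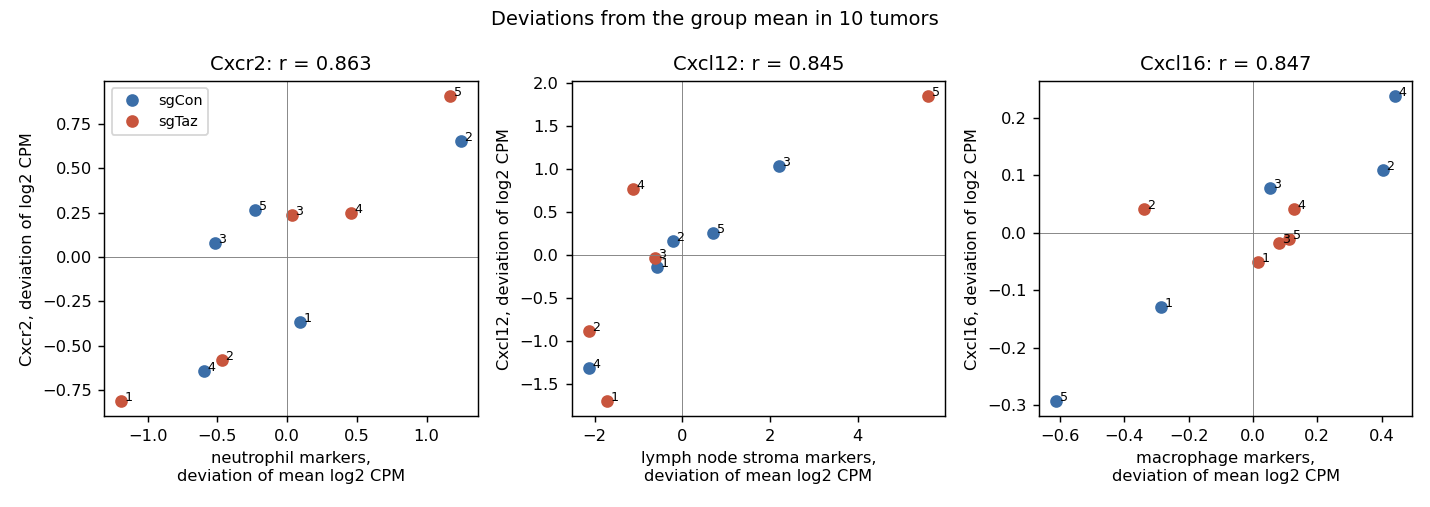
Deviation of log2 CPM from the group mean for Cxcr2, Cxcl12 and Cxcl16 (vertical axes) against that of the mean log2 CPM of neutrophil, lymph node stroma and macrophage markers (horizontal axes), with a numbered point for each of the 5 sgCon (blue) and 5 sgTaz (red) tumors. The r values are 0.863, 0.845 and 0.847, and sgTaz tumor 5 lies far to the right of the others in the middle panel. In the right panel the sgTaz points spread little on the vertical axis, so r rests mainly on the sgCon points.

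Cxcl16 was the most even of the 10 genes. It was at 150.3, 177.2, 173.6, 193.8 and 134.1 CPM in sgCon tumors 1 to 5 and at 171.4, 182.6, 175.2, 182.7 and 176.2 CPM in sgTaz tumors 1 to 5. All sgTaz tumors lay within the sgCon range, with a coefficient of variation of 2.79% against 14.2%. The log2 difference was 0.10 (SE 0.09, 95% interval −0.11 to 0.30, adjusted p = 0.563 with edgeR, p = 0.333 in the exact permutation test). In the annotation 552 exon bases overlap those of Zmynd15 on the other strand. If strand was not used, reads there cannot be told apart from those of Zmynd15. Whether such reads were counted or dropped is not given in the sources used here.

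Within groups, the relation of Cxcl16 with the macrophage markers did not pass the adjusted threshold, with r = 0.847 (permutation p = 0.0289, adjusted over 10 relations 0.0937) and rho = 0.782 (permutation p = 0.041, adjusted 0.103). Its r was 0.924 without both sgCon tumor 5 and sgTaz tumor 2, 0.682 (permutation p = 0.15) without sgCon tumor 5 alone and 0.968 (permutation p = 0.00037, adjusted 0.0037) without sgTaz tumor 2 alone. Deviations of Cxcl16 from the group mean ran from −0.293 to 0.237 log2 CPM in sgCon tumors but from −0.051 to 0.041 in sgTaz tumors. sgTaz tumor 2, lowest of its group in the markers (−0.339), was at 0.041, so r rests mainly on the sgCon tumors. All 9 macrophage markers had a higher fitted level in sgTaz tumors (6 with an unadjusted p below 0.05, none with an adjusted one), with a median log2 difference of 0.49 and a summed level of 823.0 to 1883 CPM in sgCon and 1578 to 2205 CPM in sgTaz tumors. Csf1r, the receptor of the macrophage growth factor, had a log2 difference of 0.65 (SE 0.18, adjusted p = 0.101 with edgeR). What part macrophages had in the levels of Cxcl9 and Cxcl16 was not tested.

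Cxcr6, the receptor of Cxcl16 on T and NKT cells, stood apart from its ligand. Its levels were 6.13, 11.76, 14.91, 10.88 and 7.26 CPM in sgCon tumors 1 to 5 and 21.58, 19.11, 17.09, 15.78 and 21.83 CPM in sgTaz tumors 1 to 5. All sgTaz tumors lay above all sgCon tumors, a pattern shown by 2.44% of genes tested. The log2 difference was 0.90 (SE 0.22, 1.87-fold higher, adjusted p = 0.096 with edgeR), and the exact permutation test gave p = 0.00794, the smallest it can give here. The protease ADAM10, which sheds CXCL16 from the membrane, was also higher in every sgTaz tumor than in every sgCon tumor by its RNA (Adam10, log2 difference 0.43, SE 0.09, adjusted p = 0.0824 with edgeR).

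The other CXC genes and the genes up and down stream of the 10 were counted from lists. Of 13 other CXC genes, 8 were tested, with 2 higher and 6 lower by fitted level, no adjusted p below 0.05 and 2 unadjusted. Cxcr5, a receptor of B cells, had a log2 difference of −2.99 (SE 1.10, adjusted p = 0.161 with edgeR), and Cxcr4, the receptor of Cxcl12, one of −0.60 (SE 0.35, adjusted p = 0.343). Ppbp, Cxcl15, Cxcl17, Cxcr1 and Ackr1 did not pass the filter, and Cxcr1, the other receptor for CXCR2 ligands, was at no more than 0.82 CPM in any tumor.

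Of 12 genes in the table listed as inducers of CXCR2 ligands, 11 had a lower fitted level in sgTaz tumors, with a median log2 difference of −0.31, no adjusted p below 0.05 and 4 unadjusted. The list is not of inducers alone, since the inhibitor gene Nfkbia is counted in it and among these 4. Rela, an NF-kB subunit, had a log2 difference of −0.34 (SE 0.08, adjusted p = 0.0896), Il17ra, a receptor subunit of IL-17, one of −0.49 (SE 0.17, adjusted p = 0.142), and Nfkbia, the inhibitor that NF-kB itself induces, one of −0.41 (SE 0.17, adjusted p = 0.187, all with edgeR). Il17a was not analysed here.

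Of 12 genes of the interferon gamma axis, 10 had a higher fitted level in sgTaz tumors, with a median log2 difference of 0.26, no adjusted p below 0.05 and 6 unadjusted, all higher. Ifng itself was at 2.04, 2.95, 3.06, 2.28 and 1.51 CPM in sgCon tumors 1 to 5 and at 5.09, 5.17, 3.16, 2.75 and 4.15 CPM in sgTaz tumors 1 to 5. sgTaz tumors 1, 2, 3 and 5 lay above all sgCon tumors. The log2 difference was 0.78 (SE 0.26, adjusted p = 0.134 with edgeR), with a p of 0.0317 in the exact permutation test and counts between 22 and 80. The interferon-induced GTPase genes Gbp2 and Gbp5 had log2 differences of 0.36 (SE 0.09) and 0.55 (SE 0.14), each with an adjusted p of 0.096 with edgeR.

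Of 13 genes that act downstream of CXC receptors, 11 had a lower fitted level, with a median log2 difference of −0.23, no adjusted p below 0.05 and 4 unadjusted. Grk2 and Grk6, kinases that switch off occupied receptors, had log2 differences of −0.65 (SE 0.17, adjusted p = 0.0999) and −0.71 (SE 0.24, adjusted p = 0.134), and Rac2, a GTPase of leukocyte movement, one of −0.97 (SE 0.39, adjusted p = 0.187, all with edgeR). Dpp4, a protease that trims CXCR3 ligands, had a log2 difference of −1.37 (SE 0.54, adjusted p = 0.179 with edgeR).

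**Figure D4:**
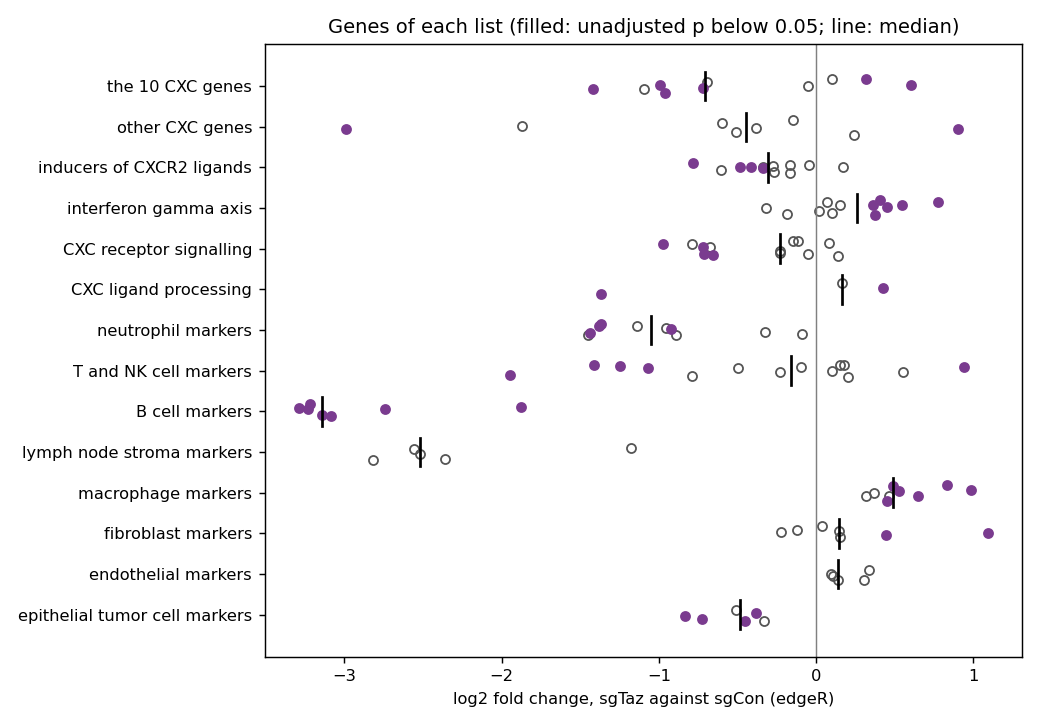
log2 fold change of sgTaz against sgCon tumors from edgeR (horizontal axis) for each tested gene of the 10 CXC genes and of 13 lists of related genes and cell type markers (vertical axis), filled where the unadjusted p is below 0.05, with a line at each list's median. The medians lie at −0.71 for the 10 genes, at −1.05 for neutrophil markers and at 0.49 for macrophage markers.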

How the data were processed

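Per the study's methods and the labels, the authors extracted RNA of whole tumors with Trizol, sequenced it on an Illumina HiSeq instrument, mapped reads to mm10 (GRCm38) with STAR in its two-pass mode and GENCODE annotation, applied RSeQC for quality control and used featureCounts of Subread for the read count of each gene. The submitters' processing notes also name CASAVA. Tool versions and the strand setting are not given in the sources used here. The values the authors deposited are these counts, whole numbers without normalization, for 17864 genes. The table has 5 further columns, which were not used here. Columns were assigned to tumors by the sample titles, and 17860 genes were named from GENCODE M21. No pair of libraries within a group was within sampling noise (the lowest chi-square per degree of freedom was 6.16).

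Counts were fitted in R 4.3.3 with edgeR 4.0.16 over all 10 tumors (filterByExpr, TMM, glmQLFit and glmQLFTest, threshold 0.05 on Benjamini-Hochberg adjusted p over 14816 genes). SE is the log2 difference divided by the square root of F, and log2 CPM used a prior count of 2. Alternatives were DESeq2 1.42.0, which the study used for its own comparison, limma 3.58.1 (voom with sample weights), other normalizations and filters, the replicate number as a block, the lymph node stroma covariate and each tumor left out. Levels were also compared with exact two-sided permutation tests, and relations within groups with 100000 permutations (Python 3.11.15, numpy 2.4.6, scipy 1.17.1, pandas 2.3.3, matplotlib 3.10.9). The scripts were tested on simulated data. Precision is limited by 5 tumors a group more than by depth, except for genes of few counts such as Cxcl3. Named are the 10 genes, Wwtr1, and from each list up to 3 genes of the smallest unadjusted p where none passed the adjusted threshold, with Ifng and genes at 0 counts, except 1 gene that is not reported here. Others, such as Cxcl11, Cxcr1 and Ly6g, were added for their role. The genes, lists and tests were chosen with earlier results of these data known.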

Additional observations from a re-analysis of the deposited data

Results flagged for a closer look

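Of 48 sets of 5 tumors examined for a single tumor far from its group, 2 held one, where chance gives about 2.4 at a rate of 5%. The lymph node stroma markers had a mean of 5.42 log2 CPM in sgTaz tumor 5, and between −2.32 and −0.80 log2 CPM in the other sgTaz tumors. The macrophage markers had a mean of 6.95 log2 CPM in sgTaz tumor 2, below the 7.31 to 7.42 log2 CPM of the other sgTaz tumors. None of the 10 CXC genes had a tumor that far from its group in log2 CPM.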

How the results depend on the processing

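With edgeR 1 gene of the whole table was called, against 1085 with DESeq2, 1546 with limma-voom, 5 with at least 10 counts in every tumor, and 0 without a filter, with the replicate block and with the lymph node stroma covariate (3610, 2462 and 1529 genes at an unadjusted p below 0.05). Leaving out each tumor gave 0 to 172 genes called, with 172 without sgTaz tumor 5 and 75 without sgTaz tumor 2. Of the 10 CXC genes 0 were called (6 at an unadjusted p below 0.05), against 1 with DESeq2 and 4 with limma-voom, and 0 in each fit without a tumor. The 6 genes at an unadjusted p became 2 with the covariate (Cxcl9 and Cxcl10) and 3 to 6 without a tumor, 3 without sgCon tumor 5 or sgTaz tumor 4. This count was added after the data were seen. Exact p below 0.05 numbered 3, and 1 to 4 without a tumor (1 without sgCon tumor 5, sgTaz tumor 3 or sgTaz tumor 4). Relations with an adjusted p below 0.05 numbered 2, and 0 to 3 without a tumor (0 without sgCon tumor 4 or sgTaz tumor 5). With the log2 of the summed CPM of a marker list they also numbered 2, but Cxcl2 with the neutrophil markers (adjusted permutation p = 0.0186) took the place of Cxcr2 (0.228), while Cxcl12 with the lymph node stroma markers passed in both (0.0037). Of 179 alternative log2 differences of the 10 genes, 6 changed sign. They were Cxcl12 with the covariate (0.91) and Cxcl5 with the replicate block (0.039) and without sgCon tumor 2 (0.22), sgCon tumor 5 (0.00), sgTaz tumor 4 (0.00) or sgTaz tumor 5 (0.01), with a range of −0.21 to 0.22 over the tumors left out. The mean log2 CPM difference of Cxcl5 ranged from −0.16 to 0.25 and its r with the epithelial markers from −0.09 to 0.24, both with changes of sign. The cause was not tested. The deviations of tumors with the same number correlated with r between −0.24 and 0.22 for the 5 numbers. These were not compared with tumors of different numbers, so whether the numbers pair the tumors was not tested. With the replicate block, 0 of the 10 genes were called and 4 had an unadjusted p below 0.05. In Cxcl3 counts as low as 8 limit the comparison, and it was not fitted with at least 10 counts in every tumor.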
